A study of Mus musculus with 4 samples.

Results

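The ATP-binding cassette (ABC) transporter family was followed across 4 RNA-seq libraries of mouse melanoma. Members were the genes whose symbol begins with Abca to Abcg and carries a number, and that had at least 1 read in any library. Of 50 such symbols in the count table, 48 met the rule, out of 19894 genes with a read. They fell into subfamilies A (15 genes), B (9), C (10), D (4), E (1), F (3) and G (6). Just inside the rule stood Abca14 and Abcb11, each with 2 reads, all in the tumor library. Just outside stood Abca16 and Abcb5, which had 0 reads in all 4 libraries. Abcb5 has been studied as a marker of chemoresistant melanoma cells. A count of 0 allows up to 3 reads, which is between 0.0185 and 0.0262 CPM (counts scaled to library size) in these libraries. Tap1, Tap2 and Cftr are ABC proteins with other symbols, so they were not members and are given beside them.

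All libraries were made from B16F10, a pigmented melanoma line from C57BL/6 mice with a wild-type (WT) genotype by the labels, which name no drug or other agent in any group. The 2D monoculture (labelled B16-control) held B16F10 cells alone, as a monolayer. NIH/3T3, an embryonic mouse fibroblast line, was grown together with them in the remaining cultures, in hanging drops for the spheroid and flat for the 2D co-culture. For the tumor, B16F10 cells were injected under the skin of female C57BL/6 mice that were 1 year old. According to the study's methods the melanoma cells of the co-cultures and of tumors were separated by cell sorting on a green fluorescent protein carried by a commercial B16F10 subline, whereas the label of the tumor library calls it snap frozen. The methods give several replicates for the RNA extraction, and whether RNA of more than 1 animal or culture was pooled into a library was not given. The methods name RPMI medium for B16F10 cells and Dulbecco's medium for spheroids, so medium and culture form cannot be told apart. Each condition had 1 library, so no difference below was tested against biological variation. The 95% intervals are exact binomial ones and cover counting error only.

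ABC proteins use the hydrolysis of ATP to drive substrates across membranes. Subfamily A moves phospholipids and sterols. Subfamily B mixes the multidrug pump P-glycoprotein with mitochondrial and lysosomal carriers. Subfamily C holds the multidrug resistance-associated proteins, which export glutathione conjugates, and the sulfonylurea receptors that regulate potassium channels. Subfamily D serves peroxisomes and lysosomal cobalamin, and G exports sterols and drugs. Members of E and F have the ATP-binding domains but no membrane domain, and act on ribosomes. In melanoma several B, C and G members are known as drug efflux pumps, and Abcb6 as a protein of pigment organelles.

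The libraries held 118896900 to 150028663 assigned reads. CPM were scaled with edgeR's TMM factors, which ranged from 0.908 in the spheroid to 1.16 in the tumor. Scaling to total counts moved every log2 ratio to the 2D monoculture by -0.12 in the spheroid and by 0.24 in the tumor, and every spheroid to tumor ratio by -0.36. The 8 melanocyte markers summed to 16911 CPM in the 2D monoculture, 15306 in the 2D co-culture, 11420 in the spheroid and 20122 in the tumor. The tumor library also held RNA of other cells. Its skeletal muscle markers summed to 4599 CPM, its macrophage markers to 1595, its adipocyte markers to 796 and its endothelial markers to 271, against at most 30.0 CPM for each of these lists in any culture. Fibroblast markers summed to 2709 CPM in the tumor and 652 CPM in the 2D co-culture, against 6.56 for 2D monoculture and 13.0 for spheroid. In such bulk libraries more cells of a type and more RNA per cell cannot be told apart.

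Beyond 2-fold of the 2D monoculture (1 CPM added to both levels), the spheroid held 3 of 48 members higher, against 7.35% of all genes, and 12 of 48 (25%) lower, against 11.6%. In the 2D co-culture 1 member was higher, where 2.7% of all genes were, and 4 (8.33%) were lower, where 6.19% of all genes were. In the tumor 13 members (27.1%) were higher and 11 (22.9%) lower, beside 12.4% and 11.8% of all genes. The members' median log2 ratio came to -0.15 (spheroid), -0.13 (2D co-culture) and -0.02 (tumor), beside medians of 0.00 to 0.01 over all genes. Several members were near 0 reads in all libraries and could not pass. Among the 34 members that averaged at least 1 CPM, 3 were higher and 12 lower in the spheroid, against 11.2% and 17.9% of all such genes. The counts were 1 and 4 for the 2D co-culture (3.79% and 9.51%) and 11 and 11 for the tumor (14.8% and 18.2%). Their median log2 ratios were -0.34, -0.27 and -0.41 for spheroid, 2D co-culture and tumor, beside 0.05, 0.01 and -0.14 over all such genes. These 34 reached their highest level in the tumor for 14 members, in the 2D monoculture for 12, in the spheroid for 7 and in the 2D co-culture for 1, where 31%, 18.5%, 34.7% and 15.8% of the 12728 such genes did. The average runs over all 4 libraries. Abca4, Abca8a, Abca9, Abcb4, Abcc3, Abcc9, Abcd2 and Abcg1 had under 1 CPM in every culture and passed it through the tumor. That their highest level lay in the tumor follows from this filter, and their calls there lean on it. Levels went down from 2D monoculture over 2D co-culture to spheroid for 21 of the 34 and up in the same order for 4, beside 25.3% and 24.9% of such genes. This order asked for no minimum level or difference in the cultures. The 21 include Abca4, Abca8a, Abcb4, Abcc3 and Abcc9, all under 1 CPM in every culture. Abcc3 had 9, 5 and 4 reads, a descent within counting error. The 3 comparisons with the 2D monoculture share that library.

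**Figure D1:**
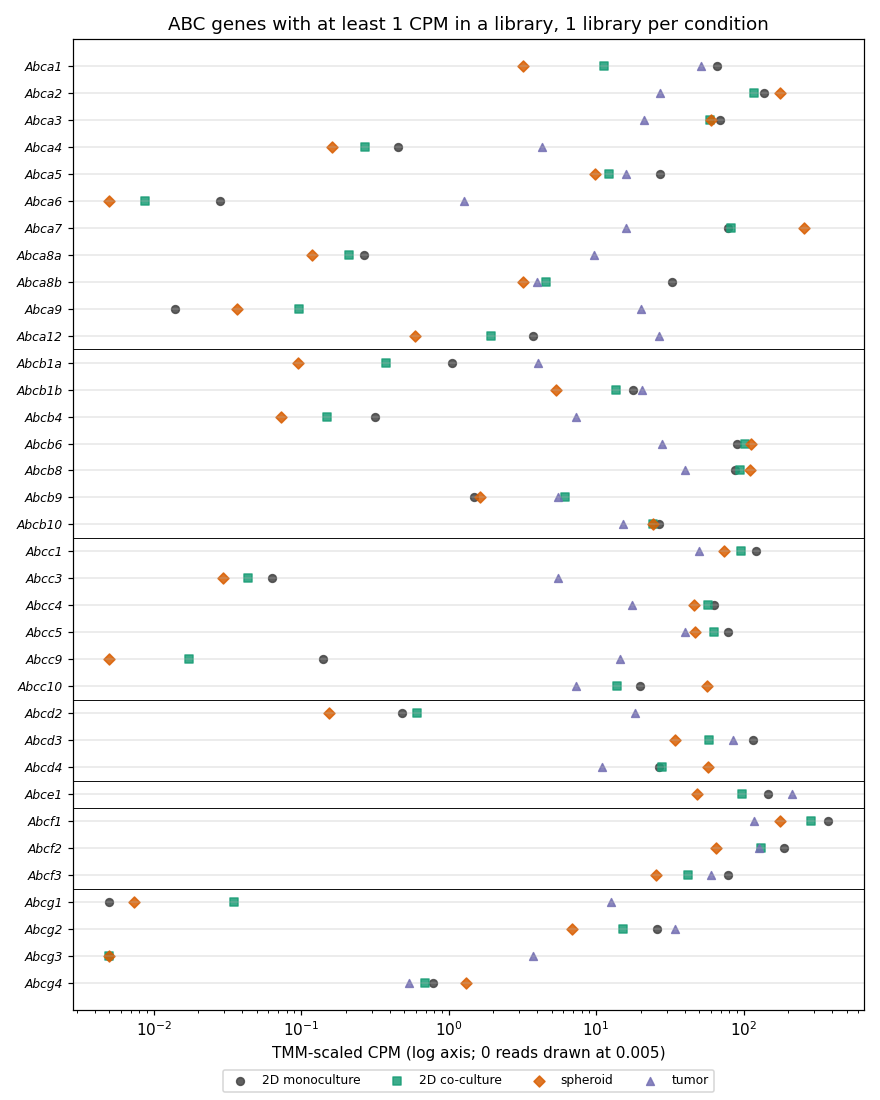
TMM-scaled CPM (log axis, 0 reads drawn at 0.005) of 35 members with at least 1 CPM in a library, with 1 point per library and condition. The spheroid point of Abca1 lies at 3.19 and its 2D monoculture point at 65.5, whereas Abca7 lies at 257 in the spheroid and 78.0 in the 2D monoculture, and a group of members such as Abca9, Abcc9 and Abcg1 stands above 10 CPM in the tumor alone.

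The make-up of the family by subfamily differed between the cultures. Per kilobase of transcript, the ribosome-associated subfamily F took 43.3% of the family's summed level in the 2D monoculture, 41.2% in the 2D co-culture, 26% in the spheroid and 33.9% in the tumor. Subfamily A took 10.8%, 10.5%, 20.9% and 8.04% in the same order, so its share was highest in the spheroid. Subfamily E, which is Abce1 alone, took 7.75%, 6.80%, 3.73% and 17.9%. Subfamily B ranged from 17.9% to 25.2%, C from 6.98% to 11.0%, D from 8.50% to 12.8% and G from 0.445% to 3.07%. In summed CPM, subfamily A was higher in the spheroid than in the 2D monoculture by 0.30 on the log2 scale (0.29 to 0.32). This rested on Abca7, without which the log2 ratio was -0.40, and of the 15 members 1 was called higher and 4 lower. The share of A per length stayed highest in the spheroid without Abca7, at 10.9% against 8.69%, 7.49% and 7.34% in 2D monoculture, 2D co-culture and tumor. Subfamilies E, F and G were lower there, at log2 ratios of -1.60, -1.26 and -1.71. C was at -0.35 (-0.13 without Abcc1, -0.67 without Abcc10) and D at -0.34. The value of G rested on Abcg2, which held 78.9% of its reads, and without it the log2 ratio was 0.66. That of D rested likewise on Abcd3 (1.0 without it), and it was -0.94 without Abcd4. For 2D co-culture against 2D monoculture, A, C, D, E, F and G lay between -0.75 and -0.31, of which D moved to -0.17 without Abcd3 and G to -0.21 without Abcg2. In the tumor A, C and F were each at -1.07, whereas E was at 0.53 and G at 0.95. There A was at -0.70 without Abca2, and F at -0.51 without Abcf1. G was at 0.54 without Abcg1 and at 4.34 without Abcg2. In the 2D monoculture, where Abcg1 and Abcg3 had 0 reads, no G member but Abcg2 reached 1 CPM. Members called higher and lower in the tumor were 5 and 4 in A, 2 and 3 in C, and 0 and 1 in F.

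**Figure D2:**
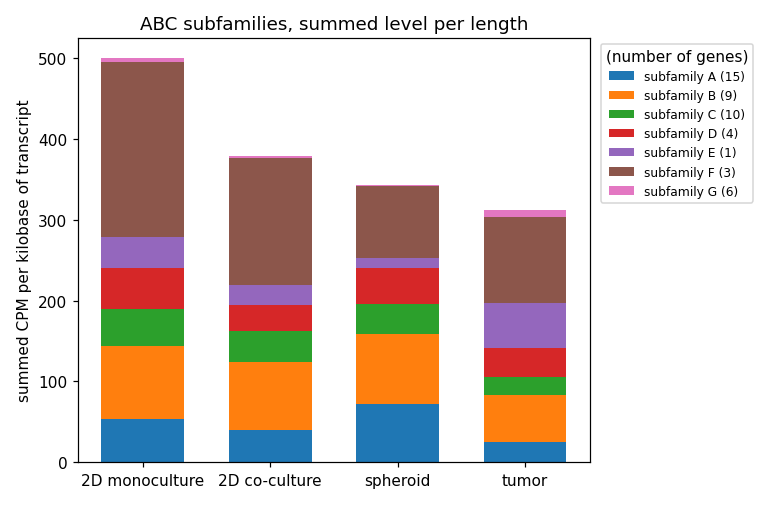
Summed TMM-scaled CPM per kilobase of transcript for subfamilies A to G, stacked from the bottom in that order, with 1 bar per library. Subfamily F shrinks from 43.3% of the bar in the 2D monoculture to 26% in the spheroid, while subfamily A grows from 10.8% to 20.9%.

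Abca1 and Abca7, close relatives within subfamily A, stood at opposite ends of the spheroid comparison. Abca1 hands cellular cholesterol and phospholipid to apolipoprotein A-I and is a classic target of the liver X receptors. Abca7 exports phospholipids and has a known part in phagocytosis. The stretches in front of both genes are shown because these 2 members had the largest differences in either direction. They are the reference bases (RefSeq, GRCm38.p6) of the 250 before the annotated start that lie outside the RefSeq gene span. For Abca1 this is chr4:53159989-53160145 on the minus strand and for Abca7 chr10:79996244-79996452 on the plus strand. GENCODE M21 places no gene, exon or UTR in either. Capitals mark CCAAT box letters, those of the GC box (GGGCGG) and, where they stand in front of Abca1, those of the E-box (CACGTG), on either strand.
Abca1: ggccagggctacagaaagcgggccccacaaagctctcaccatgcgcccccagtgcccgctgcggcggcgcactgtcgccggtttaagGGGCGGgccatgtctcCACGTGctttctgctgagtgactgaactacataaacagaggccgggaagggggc
Abca7: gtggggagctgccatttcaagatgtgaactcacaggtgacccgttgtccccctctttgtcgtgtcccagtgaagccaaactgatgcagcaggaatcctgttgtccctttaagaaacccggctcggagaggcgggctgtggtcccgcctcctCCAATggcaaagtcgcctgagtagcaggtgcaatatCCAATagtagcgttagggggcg
The Abca1 stretch held 1 GC box and 1 E-box, and the Abca7 stretch 2 CCAAT boxes. Over the full 250 bases, a GC box was found in 32.7% of 32851 RefSeq windows and in 46.5% of the 43 windows of 36 members. A CCAAT box was found in 33.8% and 27.9% of them, and an E-box in 6.02% and 11.6%. The median GC content was 52.4% over all windows and 58% over the member windows. Its part in these shares was not tested. TATA box (TATAAA), cyclic AMP response element (TGACGTCA) and antioxidant response element (TGACNNNGC) letters were also searched and stood in neither stretch. The full 250 bases of the 2 genes, which run into the RefSeq gene span, held more matches. There Abca1 had 2 GC boxes, 1 E-box and 1 TATA box, and Abca7 had 1 GC box and 2 CCAAT boxes. Such matches describe letters and not binding.

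Abca1 (chr4:53030789-53159988) had 65.5 CPM in the 2D monoculture, 11.2 in the 2D co-culture, 3.19 in the spheroid and 51.6 in the tumor. It was thus low in both cultures with fibroblasts and close to the monoculture in the tumor. The spheroid was 20.6-fold below the 2D monoculture, a log2 ratio of -4.36 (-4.50 to -4.22), the lowest among the members called. The 2D co-culture was at -2.54 (-2.63 to -2.46). Abca7 (chr10:79996453-80015572) had 78.0, 82.2, 257 and 15.9 CPM in the same order. Its spheroid level was 3.29-fold that of the 2D monoculture, at a log2 ratio of 1.72 (1.69 to 1.75), and 16.2-fold that of the tumor. Abca2, a lipid carrier of the endosomal and lysosomal system, had 137, 118, 177 and 27.2 CPM. Abca3, known from the lamellar bodies of the lung, had 69.0, 59.1, 60.4 and 21 CPM. Both were over 2-fold lower in the tumor than in any culture.

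A group of A members, Abca8b, Abca8a, Abca9, Abca6 and Abca5, lies side by side on chromosome 11, from the start of Abca8b at 109932206 to the end of Abca5 at 110337723, and forms a subgroup whose substrates are less well known. They did not move together. Abca8b had 32.8 CPM in the 2D monoculture, 4.57 in the 2D co-culture, 3.22 in the spheroid and 3.99 in the tumor. It was the only member called lower in all 3 comparisons with the 2D monoculture, at log2 ratios of -2.84 (2D co-culture), -3.35 (spheroid) and -3.04 (tumor). Abca5, a lysosomal protein, had 27.0, 12.2, 9.77 and 16 CPM. In contrast, Abca8a, Abca9 and Abca6 were low in every culture, at 0.267, 0.0961 and 0.0281 CPM at most, and reached 9.60, 20.1 and 1.28 CPM in the tumor. Abca12, the lipid carrier of keratinocyte granules, had 3.75, 1.95, 0.587 and 26.7 CPM. Abca4, best known from photoreceptors, had 0.456, 0.271, 0.162 and 4.31 CPM.

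Among the sterol exporters of subfamily G, Abcg1, which loads cholesterol onto high-density lipoprotein, had 0, 4 and 1 reads in the 2D monoculture, 2D co-culture and spheroid and 2062 reads (12.7 CPM) in the tumor. The tumor was at least 603-fold above the 2D monoculture, with the latter set to 3 reads. Abcg4, its close relative, had 0.786, 0.690, 1.31 and 0.542 CPM. Abcg5 and Abcg8, the paired exporters of gut and liver, stayed at or below 0.166 CPM. A list of 14 other sterol efflux genes had a median log2 ratio of 0.39 in the spheroid, with 2 genes over 2-fold higher (Pltp and Scarb1) and 0 lower, and of -0.36 in the tumor, with 3 higher and 3 lower. Nr1h3, which encodes liver X receptor alpha, had 0.576, 0.114, 0.316 and 9.50 CPM, while Nr1h2 (liver X receptor beta) had 126, 104, 244 and 66.7. Apoe, the most abundant gene of the list, had 629 CPM in the 2D monoculture, 732 in the 2D co-culture, 600 in the spheroid and 1289 in the tumor.

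**Figure D3:**
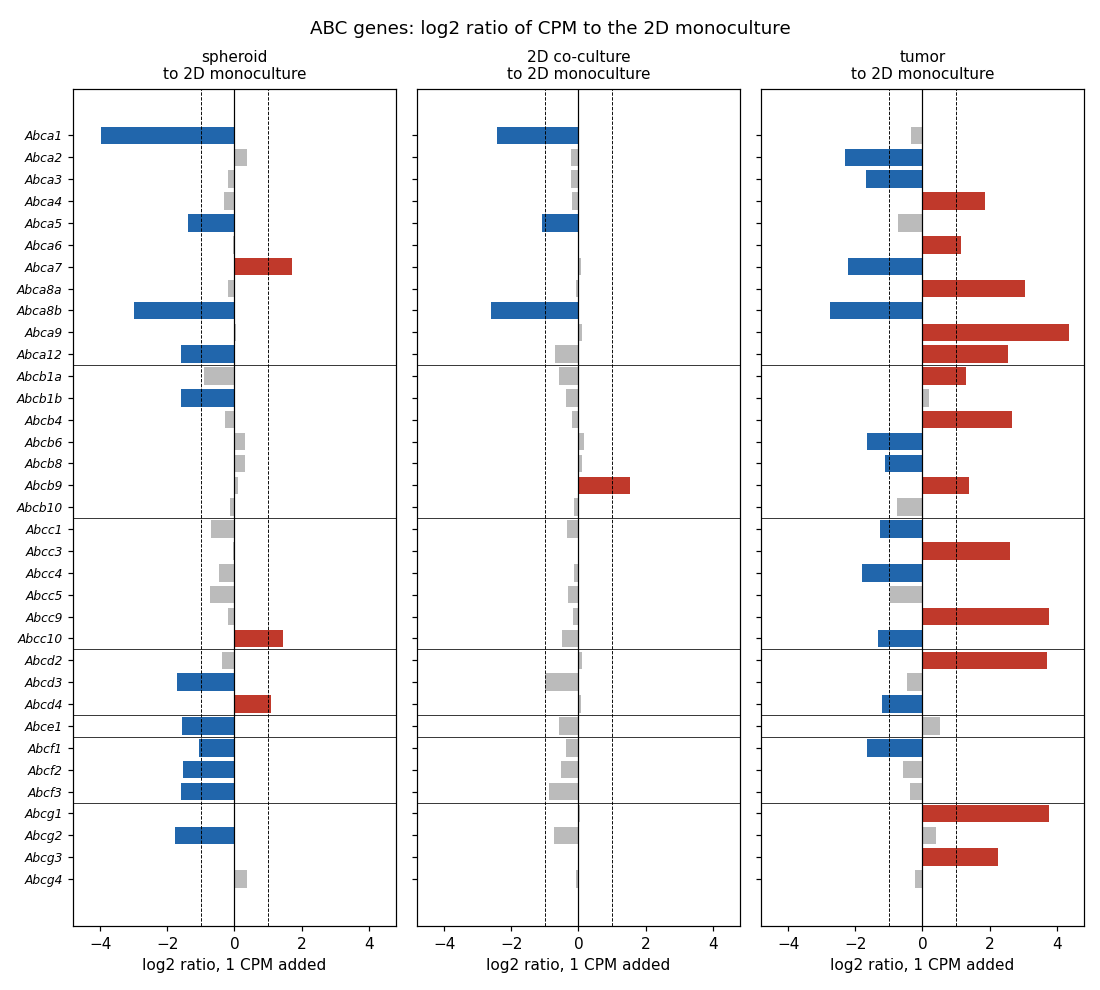
Log2 ratios to the 2D monoculture with 1 CPM added, for 35 members with at least 1 CPM in a library, in 3 panels for spheroid, 2D co-culture and tumor. Dashed lines mark 2-fold, with higher members in red (3, 1 and 13) and lower ones in blue (11, 3 and 11 of those drawn), and Abca8b is the single member that is blue in all 3 panels.

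Of the drug efflux pumps, Abcb1b and Abcg2 were called lower and Abcc10 higher in the spheroid than in the 2D monoculture. Abcg2, the breast cancer resistance protein, had 25.8 CPM in the 2D monoculture, 15.1 in the 2D co-culture, 6.81 in the spheroid and 34.2 in the tumor, with a spheroid log2 ratio of -1.92 (-2.03 to -1.82). Abcb1b, 1 of the mouse P-glycoprotein genes, had 17.9, 13.6, 5.31 and 20.4 CPM and a spheroid log2 ratio of -1.75 (-1.87 to -1.63). Both therefore had their lowest level in the spheroid and their highest in the tumor. Abcb1a had 1.05, 0.376, 0.0955 and 4.07 CPM, and Abcb4, the phosphatidylcholine exporter of bile, had 0.316, 0.148, 0.0734 and 7.32 CPM. These 3 related neighbours on chromosome 5 (8567091 to 8959226) can share reads, and how multiply aligned reads were counted was not given in the sources used here.

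Of the glutathione-conjugate exporters, Abcc1 had 122, 95.7, 73.8 and 50.1 CPM in 2D monoculture, 2D co-culture, spheroid and tumor. Abcc5, which exports cyclic nucleotides and folates, had 78.9, 62.8, 46.8 and 39.8 CPM. Abcc4, also a cyclic nucleotide exporter, had 63.2, 57.2, 45.8 and 17.5 CPM. All 3 descended in that order and stayed within 2-fold of the monoculture in the other cultures. Abcc10, an exporter of taxanes in other cells, had 19.8, 13.9, 56.0 and 7.31 CPM. It was called higher in the spheroid, at a log2 ratio of 1.5 (1.44 to 1.56), although it was 1.42-fold lower in the 2D co-culture. Abcc3, an exporter of bile salts and glucuronides, had at most 0.0632 CPM in a culture and 5.49 in the tumor. A list of 12 glutathione genes had a median log2 ratio of 0.87 in the spheroid, with 5 higher and 0 lower, and of -1.27 in the tumor, with 4 higher and 8 lower. Gstp1, its most abundant gene, had 1171 CPM in the 2D monoculture, 1555 in the 2D co-culture, 3549 in the spheroid and 451 in the tumor, and shares near-identical sequence with Gstp2. Gclm, a subunit of the enzyme that starts glutathione synthesis, had 181, 213, 271 and 26.7 CPM. The 6 xenobiotic sensors had a median of 0.08 in the spheroid, with 0 higher and 1 lower (Ahr), a median that was -0.13 under a pseudocount of 0.1 CPM.

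Among the mitochondrial members, Abcb6, which carries porphyrins, had 89.9 CPM in the 2D monoculture, 102 in the 2D co-culture, 111 in the spheroid and 27.8 in the tumor, and Abcb8 had 87.9, 93.9, 110 and 40.2. Both were lowest in the tumor and highest in the spheroid. Abcb10, which serves heme synthesis, had 26.5, 24.2, 24.3 and 15.2 CPM. A list of 12 genes of mitochondrial iron and heme handling had a median log2 ratio of 0.88 in the spheroid, with 5 higher and 0 lower, and of -0.43 in the tumor, with 0 higher and 2 lower. Slc25a37, the mitochondrial iron importer, had 48.0, 77.2, 173 and 34.8 CPM, and the heme enzyme gene Cpox had 117, 131, 231 and 27.0.

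Abcb9, a lysosomal peptide transporter, was the only member called higher in the 2D co-culture. It had 1.47 CPM in the 2D monoculture, 6.15 in the 2D co-culture, 1.64 in the spheroid and 5.53 in the tumor, and the 2D co-culture log2 ratio was 2.06 (1.84 to 2.29). The fibroblast markers summed to 652 CPM in the 2D co-culture and 4 of the 8 were over 2-fold higher there, whereas the spheroid, which was also grown with fibroblasts, was at 13.0 CPM. The part of these cells in the Abcb9 level was not tested. Tap1, a subunit of the peptide transporter that feeds class I molecules, had 7.37, 7.27, 15.3 and 55.5 CPM, and its partner Tap2 had 7.02, 11.1, 27.3 and 27.1. Tap2 in the spheroid was 3.89-fold above the 2D monoculture and level with the tumor, at a log2 ratio of 0.01 (-0.05 to 0.08). Of 8 peptide loading genes, 2 were higher in the spheroid (Tapbp and H2-K1) and 3 lower (Canx, Pdia3 and Erap1), with a median of 0.24, and 4 were higher and 1 lower in the tumor. H2-K1, a class I heavy chain, had 44.1, 34.6, 191 and 550 CPM.

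In subfamily D, Abcd3 had 116 CPM in the 2D monoculture, 58.3 in the 2D co-culture, 34.5 in the spheroid and 84.6 in the tumor. It carries branched-chain and dicarboxylic acids into peroxisomes, and its spheroid log2 ratio was -1.75 (-1.80 to -1.71). Abcd2, another peroxisomal fatty acid carrier, had 0.484, 0.611, 0.154 and 18.4. Abcd3 and Abcd2 thus had their highest levels in different libraries. The 12 peroxisomal fatty acid oxidation genes had a median of -0.24 in the spheroid, with 0 higher and 2 lower (Hsd17b4 and Crot), and of -0.42 in the tumor, with 0 and 2. Abcd4, which releases cobalamin (vitamin B12) from lysosomes, had 26.7, 28.1, 57.8 and 11.0 CPM, and its spheroid log2 ratio was 1.11 (1.06 to 1.17). Among 7 other cobalamin genes 0 were higher and 2 lower in the spheroid. These were Mut, with 75.8 CPM in the 2D monoculture and 15.5 in the spheroid, and Mtr, with 29.1 and 8.11, the 2 enzymes that use the cofactor. Lmbrd1, the lysosomal partner of Abcd4, had 126, 76.3, 72.3 and 89.8 CPM.

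All 4 soluble members were called lower in the spheroid. Abce1, which splits ribosomes after termination, had 147 CPM in the 2D monoculture, 97.5 in the 2D co-culture, 48.6 in the spheroid and 212 in the tumor. Abcf1, a partner of initiation factor 2, had 371, 288, 177 and 117 CPM. Abcf2 had 189, 131, 64.5 and 127 CPM, and Abcf3, which also belongs to the ribosome-associated group, had 78.0, 41.8, 25.4 and 60.1. Their spheroid log2 ratios were -1.60 (Abce1), -1.07 (Abcf1), -1.55 (Abcf2) and -1.62 (Abcf3), and in the 2D co-culture they lay between -0.90 and -0.36. The order from 2D monoculture over 2D co-culture to spheroid held for each of them, whereas in the tumor Abce1 was highest of all libraries and Abcf1 lowest. Abcf1 was the most abundant of the 4 per length in the 2D monoculture, at 117 CPM per kilobase against 38.7 for Abce1. Of 10 genes of ribosome recycling and initiation, 0 were higher and 4 lower in the spheroid, with a median of -0.92. The medians for tumor and 2D co-culture were -0.48 and -0.10. Gspt1, a release factor, had 283, 264, 118 and 180 CPM, and Eif2ak4, a kinase activated by stalled ribosomes, had 41.9, 18.6, 14.0 and 19.3.

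Of the channel-linked members, only Abcc9 passed 1 CPM, and only in the tumor. Abcc9, the sulfonylurea receptor of vessel and muscle cells, had 20, 2 and 0 reads in the cultures and 2358 (14.5 CPM) in the tumor. Its channel pores Kcnj8 and Kcnj11 had at most 0.0912 CPM in a culture and 6.77 and 5.21 CPM in the tumor. Abcc8, the receptor of insulin-secreting cells, had at most 0.290 CPM in any library. Cftr, the chloride channel, went the other way, with 10.3, 0.515, 0.433 and 2.24 CPM from 2D monoculture to tumor. The 2D co-culture was 20.0-fold and the spheroid 23.8-fold below the 2D monoculture.

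The 13 members called higher in the tumor were Abca4, Abca6, Abca8a, Abca9, Abca12, Abcb1a, Abcb4, Abcb9, Abcc3, Abcc9, Abcd2, Abcg1 and Abcg3. Abcg3, a rodent relative of Abcg2, had 0 reads in every culture and 607 (3.74 CPM) in the tumor, at least 178-fold above the 2D monoculture. Relative to the tumor level, the spheroid stood at 0.0578% for Abcg1, 0.182% for Abca9, 0.535% for Abcc3 and 0.837% for Abcd2. It stood at 1.0% for Abcb4, 1.22% for Abca8a, 2.20% for Abca12, 2.35% for Abcb1a and 3.75% for Abca4, while Abcb9 was far above these at 29.6%. Abca6, Abcc9 and Abcg3 had 0 reads in the spheroid, which with 3 reads in place of 0 puts the tumor at least 57.9-fold, 659-fold and 170-fold higher. Markers of other cells were at a median of 0.130% (skeletal muscle), 0.146% (macrophage), 0.132% (adipocyte) and 0.174% (endothelial) of their tumor level in the spheroid. The medians were 0.438% for fibroblast, 0.544% for lymphocyte and 10.2% for pericyte markers. In the tumor over 2-fold more than in the 2D monoculture were all 8 macrophage, 8 fibroblast, 7 endothelial, 5 skeletal muscle and 5 adipocyte markers, 3 of 6 pericyte, 2 of 5 lymphocyte and 0 of 8 melanocyte markers. At 0 reads in the 2D monoculture were Cd14 and Fcgr1 (macrophage), Myh4 (skeletal muscle), Lep (adipocyte), and Nkg7 and Ms4a1 (lymphocyte). The part of those cells in the levels of the 13 members was not tested. The 11 members called lower in the tumor were Abca2, Abca3, Abca7, Abca8b, Abcb6, Abcb8, Abcc1, Abcc4, Abcc10, Abcd4 and Abcf1, of which Abca8b had the lowest log2 ratio.

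Spheroid and tumor were also compared directly. In the spheroid 9 members were over 2-fold higher than in the tumor, against 17.4% of all genes, and 20 (41.7%) were lower, against 20.6%. The median log2 ratio was -0.28 over the members and -0.03 over all genes. Of the 34 members averaging at least 1 CPM, 9 were higher and 18 lower, where 26.8% and 27.6% of such genes were, and the median was -1.24, beside 0.075 over such genes. The 18 lower include Abca4, Abca8a, Abca9, Abcb4, Abcc3, Abcc9, Abcd2 and Abcg1, which passed the average through the tumor with under 1 CPM in every culture. Their calls and their weight in the median therefore lean on that filter. The 9 higher members included Abca2, Abca3, Abca7, Abcb6, Abcb8, Abcc4, Abcc10 and Abcd4. Largest among them were Abca7 at 4.01 (3.96 to 4.07), Abcc10 at 2.94 (2.85 to 3.03) and Abca2 at 2.70 (2.66 to 2.75). On the lower side Abca1 was at -4.02 (-4.16 to -3.88), Abcg2 at -2.33 (-2.43 to -2.23) and Abce1 at -2.12 (-2.16 to -2.08), and 12 of the 20 were members listed as higher in the tumor than in the 2D monoculture that had under 1 CPM in the spheroid. Members within 2-fold in both directions included Abcb10 at 0.67, Abcc1 at 0.56 and Abcc5 at 0.23, the last at -0.12 when scaled to total counts.

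GC content moved with these ratios. Over 12664 genes that averaged 1 CPM or more, the rank correlation (Spearman) of the log2 ratio with the GC content of the longest coding transcript was 0.483 for spheroid to 2D monoculture, 0.212 for 2D co-culture to 2D monoculture, -0.385 for tumor to 2D monoculture and 0.541 for spheroid to tumor. Over the 34 members it was 0.732, 0.475, -0.440 and 0.641. The 34 include Abca4, Abca8a, Abca9, Abcb4, Abcc3, Abcc9, Abcd2 and Abcg1, which passed the average through the tumor with under 1 CPM in every culture. Their ratios to the tumor follow from that filter, and the added 1 CPM holds their ratios between cultures small. The members' correlations therefore lean on the filter. Genes are not independent replicates and share the libraries, so these are descriptions. Abca7 (58.9% GC), Abcc10 (57.5%) and Abcd4 (55.8%) lie at the high end, and Abcg2 (39.2%), Abca5 (39.8%) and Abce1 (40.3%) at the low end.

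**Figure D4:**
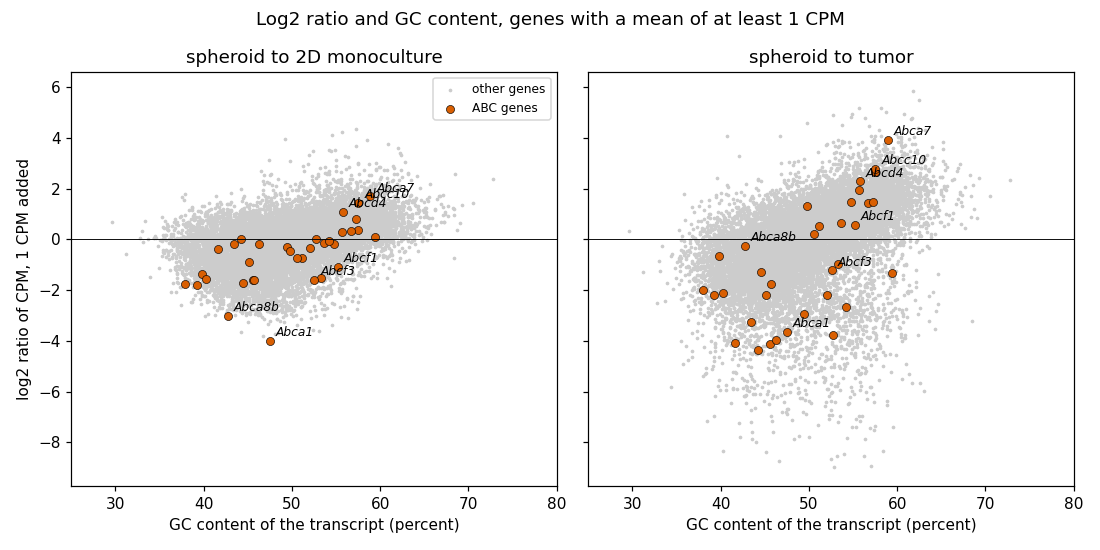
Log2 ratio (1 CPM added) against the GC content of the transcript in percent, for spheroid to 2D monoculture (left) and spheroid to tumor (right). Gray points are all genes averaging 1 CPM or more and orange points the 34 members, whose ratios go up with GC content in both panels (Spearman 0.732 and 0.641), with Abca1 far below other members of like GC content on the left. Several of the 34 passed the average through the tumor alone.

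With the median ratio of genes of like GC content and length removed, over genes averaging 1 CPM or more, 6 members were lower in the spheroid than in the 2D monoculture, where 11.2% of such genes were. These were Abca1, Abca8b, Abcd3, Abcf1, Abcf2 and Abcf3. No longer counted were, among others, Abca5, Abca12, Abcb1b, Abce1 and Abcg2. The count adds 1 CPM to each level, and without it the corrected ratios were -0.43 (Abca5), -1.46 (Abca12), -1.08 (Abcb1b), -0.88 (Abce1) and -1.03 (Abcg2). Abca1 was at -3.09, Abca8b at -2.16, Abcf2 and Abcf3 each at -1.81, Abcd3 at -1.48 and Abcf1 at -1.46. On the higher side 4 members were counted, where 9% of such genes were. Abca7 at 1.45 and Abcc10 at 1.06 stayed, Abcd4 at 0.79 did not, and Abca9 and Abcc9, which had 5 and 0 reads in the spheroid, entered through the correction alone. Abcb6 went from 0.31 to -0.18, Abcb8 from 0.33 to -0.32, Abcc1 from -0.72 to 0.17 and Abcc4 from -0.46 to 0.19. In the 2D co-culture the corrected calls were Abcb9 on the higher side (4.19% of such genes) and Abca1 and Abca8b on the lower side (6.85%). In the tumor 11 were higher (15.8%) and 5 lower (5.57%), the latter Abca2, Abca5, Abca8b, Abcb6 and Abcc4. Between spheroid and tumor 6 were higher (16.8%), namely Abca2, Abca7, Abca8b, Abcc4, Abcc10 and Abcd4, and 15 lower (21.5%). The 11 higher in the tumor and these 15 include members that passed the average through the tumor alone.

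Under 1 CPM in all 4 libraries stood 11 members, namely Abca13, Abca14, Abca15, Abca17, Abcb11, Abcc2, Abcc6, Abcc8, Abcc12, Abcg5 and Abcg8. The highest level among them was 0.569 CPM, of Abcc2 in the 2D monoculture. Members with 0 reads numbered 4 in the 2D monoculture, 6 in the 2D co-culture, 8 in the spheroid and 1 in the tumor. At least 1 CPM was reached by 26, 25, 25 and 36 members in the same order. Abca17 overlaps Abca3, and Abcg5 overlaps Abcg8, on chromosome 17, and whether the counting used strand was not given in the sources used here, so their few reads are uncertain.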

How the data were processed

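RNA was sequenced with 150-base paired-end reads after poly(A) selection, with 1 library per condition. The deposited table gives whole-number read counts per gene symbol, which the authors made, per the labels, with Trimmomatic, STAR and featureCounts on mm10 (versions, strand and multi-mapping settings were not given in the sources used here). Depth was 118896900 to 150028663 reads per library. CPM used TMM factors (edgeR 4.0.16, R 4.3.3) and Python 3.11.15. Ratios of single genes had no pseudocount and an exact binomial interval at 95%. Calls and list medians added 1 CPM to each level. A library at 0 was set to 3 reads and its fold given as a bound. No test was possible with 1 library per group, and NOISeq and GFOLD, used in the study, were not run. GC content and length came from the longest coding transcript in GENCODE M21, and the correction removed the median log2 ratio of 10 by 10 classes. Promoters and coordinates came from RefSeq (GRCm38.p6, the same assembly as mm10). Scripts were tested on simulated counts.

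Named were members with at least 10 CPM in a library, or with at least 1 CPM and over 4-fold from the 2D monoculture, Tap1, Tap2 and Cftr, and in each list up to 3 genes of highest mean and 2 of largest ratio. Members with under 1 CPM throughout were named without statistics, and genes of calls and of short counts outside this rule were named after their values were seen. The members and all lists were chosen with earlier results of these data known. Individual results of 2 members are not reported here, and both stay in the counts over the family.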

Additional observations from a re-analysis of the deposited data

How the results depend on the processing

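No paired analysis was possible because there was 1 library per condition, so no library could be left out either. Of the alternative counts of members, 74 were within 1.5-fold of the reported count and 18 were not. Except over genes averaging 1 CPM or more, the share of all genes was not computed under these settings. The alternative counts therefore show how far calls moved and cannot be set against all genes. With 0.1 CPM added, 19 members were lower in the spheroid, 7 were lower in the 2D co-culture, the family median for spheroid to tumor was -1.04, and the median of the potassium channel pores was 5.23 (tumor to 2D monoculture) and -5.57 (spheroid to tumor). Over genes averaging 1 CPM or more, a filter that several members passed through the tumor alone, that family median was -1.24. With at least 10 reads in each library, 8 members were higher in the tumor. GC and length correction gave 7 members higher and 6 lower in the spheroid, only 2 lower for 2D co-culture and 5 lower in the tumor. Of the 7 higher, Abca6, Abca14, Abca15 and Abcc9 had 0 reads in the spheroid and Abca9 had 5. These entered through the correction alone. The correction gave medians of 3.38 and -3.78 for the channel pores, of -0.042 (sterol efflux) and 0.077 (ribosome recycling) for spheroid to tumor, and -0.022 for Abcb8 in that comparison. The same correction over genes averaging 1 CPM or more, TMM factors without the tumor library and subfamily A without Abca7 were chosen after seeing the data. The first gave 6 lower members for spheroid, 2 for 2D co-culture and 5 for tumor, the same 3.38 and -3.78, and 0.077 for both sterol efflux and ribosome recycling. The second moved no ratio between cultures. At 4-fold, 0 members were higher and 2 lower in each of spheroid and 2D co-culture, 3 lower in the tumor, and 4 higher in the spheroid than in the tumor. At 1.5-fold 10 were lower in the 2D co-culture, and with upper quartile factors 2. Without its top member, subfamily G was at 0.66 in the spheroid, since Abcg2 held most of its reads. Subfamily A went from 0.30 to -0.40 there without Abca7, and C was at 0.10 after GC and length correction. For spheroid to tumor, subfamily B went from 0.17 to -0.19 and D from 0.03 to -0.33 under total counts. Where no cause follows from the setting itself, the cause was not tested. Depth limited members under 3 reads.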
